A study of Mus musculus with 14 samples.

Results

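Interferon-stimulated genes are the genes that cells switch on when an interferon is sensed, and 37 of them were followed here through mouse ventricles after pressure overload, with and without an induced loss of Rad. The 37 were named as a list, from sensors of viral RNA to antiviral enzymes and GTPases, and were taken by gene symbol. All 37 were found, among 26068 genes in either of the deposited tables and 22136 genes in both. Polyadenylated RNA was sequenced from the ventricle in 14 libraries. The wild type (WT) gave 3 sham and 4 TAC libraries, and the Rad knockout (Rad KO) likewise 3 and 4. The operation called TAC is transverse aortic constriction, which narrows the aorta and makes the left ventricle pump against a raised pressure, and sham is the operation without the narrowing. Rad is a small GTP-binding protein, encoded by Rrad, that holds back the L-type calcium channel of heart muscle. All 4 groups carry the same protocol label, in which tamoxifen followed TAC by 4 weeks. Tissue was taken over 2 months after TAC and over 1 month after the knockout. What drives the inducible knockout and in which cells, and the strain, age and sex of the mice, are not stated in the labels. Nor do they tie each library to an animal of its own, so each p-value measures the spread between libraries, which may be technical.

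Type I interferons bind the receptor made of Ifnar1 and Ifnar2, and the Janus kinases on it set off a complex, with Stat2 and Irf9 among its parts, that binds the interferon-stimulated response element (ISRE). Interferon gamma acts through Ifngr1 and Ifngr2 and on genes that hold the gamma-activated site (GAS), and it is the main inducer of the immunity-related and guanylate-binding GTPases. In the heart, interferon-stimulated genes are known from viral myocarditis and from the sensing of nucleic acid released by injured muscle cells, where macrophages and fibroblasts are among the responding cells.

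The promoter letters show what these genes share apart from their names. RefSeq promoters of the build GRCm38.p6, 250 bases before to 50 bases after the start, were matched by symbol for 28 of the 37 genes. Mx1, Mx2, Usp18, Oas2, Zbp1, Parp14, Rtp4, Dhx58 and Parp9 had no entry. The ISRE core was searched on both strands as GAAA, any 2 bases and GAAA. It was present in 16 of the 28 (57.1%) and in 3.99% of all 27025 genes with an entry. The GAS was searched as TTCNNNGAA, which reads the same on both strands, and was present in 7 of the 28 (25%) and in 9.55% of all genes. Both motifs were present in 4 of the 28, Bst2, Gbp7, Igtp and Oas1a. A match of letters is not a measured binding site. No ISRE core was found for Oasl2, Irf9, Irf1 and Irf7, to which the results also return. The stretches below are from some of the 16 genes with a core. They run 5′ to 3′ along the gene, with the ISRE core in capitals and 20 bases to either side. The Igtp entry is the exception and gives all 250 bases before the start.
Isg15, chr4:156200855-156200916, minus strand: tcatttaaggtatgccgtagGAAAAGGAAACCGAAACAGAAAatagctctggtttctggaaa
Bst2, chr8:71537567-71537622, minus strand: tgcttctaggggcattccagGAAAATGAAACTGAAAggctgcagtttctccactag
Gbp2, chr3:142620584-142620633, plus strand: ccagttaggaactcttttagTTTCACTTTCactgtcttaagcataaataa
Ifit1, chr19:34640765-34640833, plus strand: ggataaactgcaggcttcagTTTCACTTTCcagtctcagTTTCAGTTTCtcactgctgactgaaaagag
Ifit3, chr19:34583353-34583436, plus strand: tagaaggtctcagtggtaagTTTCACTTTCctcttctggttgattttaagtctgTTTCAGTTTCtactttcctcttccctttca
Igtp, chr11:58199306-58199555, plus strand: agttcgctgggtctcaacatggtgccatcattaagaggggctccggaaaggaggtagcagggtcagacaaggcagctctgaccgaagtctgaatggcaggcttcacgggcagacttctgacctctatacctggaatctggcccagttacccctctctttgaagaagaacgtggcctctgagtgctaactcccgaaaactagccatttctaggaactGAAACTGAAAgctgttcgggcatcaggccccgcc

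Isg15 held 3 overlapping cores on the gene's strand, beginning 78 to 66 bases before the start, and Bst2 held 2, beginning 130 and 124 bases before it. Ifit1 and Ifit3 each held 2 separate cores in the opposite orientation, at 104 and 85 bases before the start in Ifit1 and at 156 and 122 in Ifit3. The stretch of Ifit3b, chr19:34607749-34607832, had the same letters as that of Ifit3, and the windows of these neighbouring genes were 99.6% identical over 260 aligned bases. In Igtp, the core began 34 bases before the start, and a GAS began 45 bases before it, directly upstream of the core in the printed run.

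Counts were high enough to test 36 of the 37 genes for TAC in WT, where Mx1 was left out by the filter, 36 for TAC in Rad KO, where Oas3 was left out, and 37 in the model of all libraries. Total counts per library ran from 14546176 to 23314792. Levels of 1 gene are given as counts per 1000000 (CPM), scaled over the 14 libraries, and levels of different genes are set side by side only as FPKM, which is per gene length. Cardiomyocyte marker genes summed to 44099 to 61043 CPM and atrial markers to 12.2 to 21.5 CPM, as the ventricle label says. Rrad was not lower in the libraries labelled Rad KO, at 160 to 227 CPM in Rad KO sham and 120 to 241 CPM in Rad KO TAC, against 199 to 231 CPM in WT sham and 127 to 243 CPM in WT TAC. Which part of the gene was deleted is not stated, so the Rrad level does not check the label, and Rad KO below names the label. Esr1, an oestrogen receptor gene, was over 100 CPM in WT sham 2 and 3, Rad KO sham 1 and 3 and all 4 Rad KO TAC libraries. It was at 0.558 to 1.61 CPM in the other 6, among them all 4 WT TAC libraries. Both sham groups thus mix the 2 levels, while in TAC the level cannot be told apart from the label.

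The ventricles expressed most of these genes at low levels, and the order was much the same in both tables. Bst2, whose product tethers budding virus to the cell surface, was the most abundant per length, with a mean of 27.5 FPKM over the WT-labelled libraries and 24.6 FPKM over those labelled Rad KO. Gbp2 followed at 8.68 and 8.81 FPKM, Igtp at 8.04 and 8.63 FPKM, Ifi35 at 7.28 and 6.72 FPKM, and Ifit3 at 7.13 and 7.43 FPKM. The lowest were Oas3, at 0.0661 and 0.0470 FPKM, and Mx1, at 0.112 and 0.186 FPKM. Mx1 had 1 to 19 counts per library and Oas3 0 to 20, so neither can show a modest difference at this depth. The range within 1 gene exceeds the steps between neighbours in this order: Igtp alone reached 16.5 FPKM in its highest WT-labelled library.

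The clearest pattern among the 37 genes lay in single libraries. Rad KO TAC 1 was the highest of the 14 libraries for 23 of the 37 genes, while it was the highest for 7.82% of all 14731 tested genes. It stood above the gene's mean for 35 of 37 genes, with a median deviation of 0.54 on the log2(CPM + 1) scale. WT TAC 2 was next by this count, the highest of 14 for 6 genes and above the mean for 34, with a median deviation of 0.24. WT sham 2 deviated by a median of 0.24 as well, and Rad KO sham 3 lay lowest with a median of -0.30. Within its own group, Rad KO TAC 1 was the highest library for 32 of 37 genes (86.5%), against 24.5% of all genes, and WT TAC 2 for 30 of 37 (81.1%), against 24.6%. In the sham groups, WT sham 2 was the highest for 23 and Rad KO sham 2 for 25 of 37 genes, against 34.1% and 31.9% of all genes. The summed level of the 37 genes was 656 CPM in Rad KO TAC 1 and between 375 and 543 CPM in the other 13 libraries. Because these are single libraries of a group, the medians and counts over the 37 genes below that involve Rad KO TAC 1 or WT TAC 2 are also given without it.

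**Figure D1:**
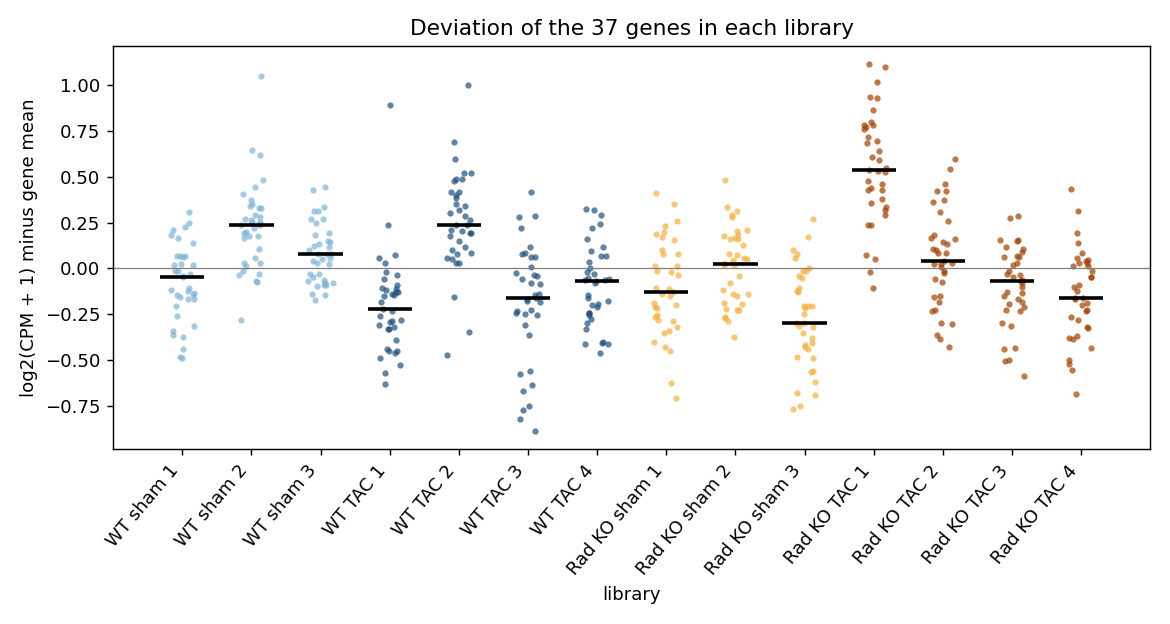
Deviation of each of the 37 genes from its own mean over 14 libraries, on the log2(CPM + 1) scale, with 1 point per gene, a black line at the median of each library and colours by group. The median of Rad KO TAC 1 is 0.54, those of WT TAC 2 and WT sham 2 are 0.24, and that of Rad KO sham 3 is -0.30.

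Marker genes of other cell types were read in the same libraries. The 7 fibroblast markers summed to 1699 CPM in Rad KO TAC 1 and 1568 CPM in WT TAC 2, the highest and second highest of the 14. By group the fibroblast sum ran from 662 to 1010 CPM in WT sham, 985 to 1568 in WT TAC, 711 to 938 in Rad KO sham and 933 to 1699 in Rad KO TAC, and none of the 7 was at 0 in any library. The 14 macrophage and monocyte markers summed to 438.1 and 437.7 CPM in the same libraries, again the highest and second highest. Their sum ran from 313 to 405 CPM in WT sham, 279 to 438 in WT TAC, 274 to 307 in Rad KO sham and 196 to 438 in Rad KO TAC, with Ly6c2 at 0 in some libraries. The part of these cells in the results was not tested, and in whole tissue more cells of a type and more RNA per cell cannot be told apart. T and NK cell markers summed to 1.31 to 3.50 CPM, with 8 of 10 at 0 in some library. B cell markers summed to 0.812 to 3.39 CPM. Neutrophil markers summed to 1.18 to 5.86 CPM, with S100a8, Retnlg and Cxcr2 at 0 in some libraries. The B cell sum, though small, was highest in WT TAC 2 and second highest in Rad KO TAC 1, with Cd79b and Ms4a1 at 0 in some libraries. Plasmacytoid dendritic cell markers, among them Bst2 itself, summed to 109 to 161 CPM with WT TAC 2 the highest library and Rad KO TAC 1 at 143 CPM. Of these 5 markers, 3 had enough counts to be tested, and Ccr9 was at 0 in some libraries. Endothelial markers summed to 826 to 1335 CPM, with 1314 CPM in Rad KO TAC 1, the second highest, and 1180 CPM in WT TAC 2. Their part was not tested either.

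Not every gene was high in Rad KO TAC 1. Set against the mean of the other 3 Rad KO TAC libraries, its level was 2.52 times as high for Oasl1, 2.41 for Ifi44, 2.36 for Zbp1, 2.30 for Oasl2, 2.28 for Oas1a, 2.21 for Rtp4 and 2.21 for Ifit1. Oas3 had a ratio of 4.75 but rests on at most 16 counts per library there. At the other end, the ratio was 1.14 for Rsad2, 1.10 for Trim25, 1.06 for Irf1, 1.02 for Ifi35 and 0.887 for Mx2. The median ratio was 1.67 over the 16 genes with an ISRE core in the promoter window and 1.42 over the 12 genes whose window held none, given as a description of 1 library. Among the genes with other peaks, Rsad2 (viperin, which makes a chain-terminating nucleotide) was highest in WT TAC 1 at 28.3 CPM.

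**Figure D2:**
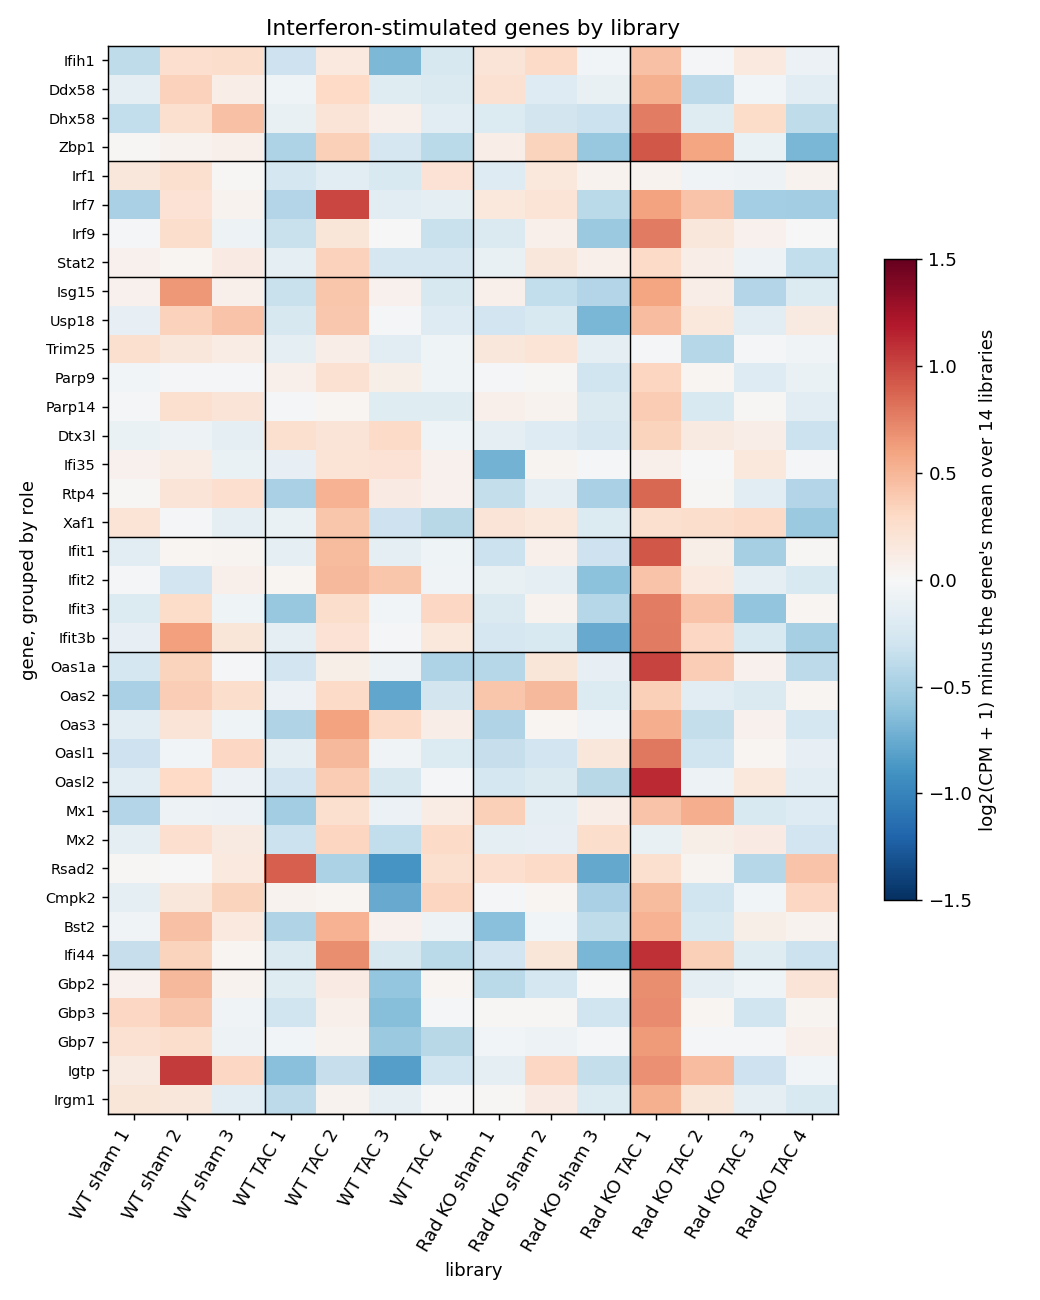
Level of each of the 37 genes (rows, grouped by role) in each of the 14 libraries (columns, by group), as log2(CPM + 1) minus the gene's mean, red above and blue below it. Rad KO TAC 1 is the highest library for 23 genes and WT TAC 2 for 6.

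The sensors came first in the order of the pathway. Ifih1 (MDA5) detects long double-stranded RNA, and its level was 7.68, 12.4 and 12.6 CPM in WT sham, 8.08, 11.5, 6.08 and 8.51 in WT TAC, 11.9, 12.8 and 9.93 in Rad KO sham, and 14.3, 10.2, 11.5 and 9.56 in Rad KO TAC. The WT and Rad KO groups overlapped in sham and in TAC, and Rad KO TAC 1 was the highest library. Zbp1, a sensor of left-handed nucleic acid that can trigger necroptosis, was measured at 1.75, 1.82 and 1.87 CPM in WT sham, 0.977, 2.47, 1.28 and 1.06 in WT TAC, 1.91, 2.43 and 0.838 in Rad KO sham, and 4.19, 3.11, 1.53 and 0.688 in Rad KO TAC. Its highest and lowest libraries both lay in Rad KO TAC. Ddx58 (RIG-I) and its regulator Dhx58 (LGP2) were also highest in Rad KO TAC 1, at 22.5 and 4.57 CPM, against means of 13.3 ± 1.68 and 2.11 ± 0.745 CPM (SD, n = 3) in the other libraries of the group.

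Among the transcription factors, Irf7 amplifies the type I response and had 9.61, 16.3 and 14.4 CPM in WT sham, 9.96, 28.7, 12.3 and 12.4 in WT TAC, 15.5, 16.1 and 10.2 in Rad KO sham, and 21.6, 18.9, 9.45 and 9.35 in Rad KO TAC. WT TAC 2 stood far above the rest of its group, and Rad KO TAC 1 was second of the 14. Irf1, which interferon gamma induces strongly, was steadier at 22.2, 23.4 and 20.1 CPM in WT sham, 16.3, 17.6, 16.7 and 23.2 in WT TAC, 17.2, 22.2 and 20.6 in Rad KO sham, and 20.5, 18.9, 18.7 and 20.4 in Rad KO TAC. All of its groups overlapped, and the Rad KO TAC libraries lay within 2 CPM of each other. Stat2 had 17.3, 16.8 and 17.99 CPM in WT sham, 14.8, 21.1, 13.7 and 13.6 in WT TAC, 15.2, 18.6 and 17.4 in Rad KO sham, and 20.3, 17.7, 15.5 and 12.5 in Rad KO TAC. Its peak was in WT TAC 2, with Rad KO TAC 1 second. Irf9, the DNA-binding partner of Stat2, reached 27.7 CPM in Rad KO TAC 1, where the other 3 libraries of the group averaged 16.6 ± 0.990 CPM (SD, n = 3).

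Isg15 is a ubiquitin-like protein that is joined to other proteins, and Usp18 removes it and also damps signalling at the receptor. Isg15 was counted at 4.08, 6.61 and 4.12 CPM in WT sham, 2.87, 5.48, 4.07 and 3.10 in WT TAC, 4.12, 2.75 and 2.58 in Rad KO sham, and 6.32, 4.21, 2.58 and 3.23 in Rad KO TAC. WT sham 2 was its highest library and every pair of groups overlapped. For Usp18 the values were 2.76, 4.22 and 4.50 CPM in WT sham, 2.47, 4.41, 3.01 and 2.57 in WT TAC, 2.36, 2.49 and 1.55 in Rad KO sham, and 4.63, 3.56, 2.64 and 3.51 in Rad KO TAC. The Rad KO sham libraries were all below the WT sham and the Rad KO TAC libraries, with no overlap. In groups this small such a gap also arises without a difference. Its share over all genes was not counted, so gaps here and below only describe the values. Rtp4, an interferon-induced chaperone of receptor transport, had 8.03, 9.18 and 9.56 CPM in WT sham, 5.34, 11.8, 8.65 and 8.32 in WT TAC, 5.96, 7.02 and 5.35 in Rad KO sham, and 15.2, 8.03, 6.997 and 5.57 in Rad KO TAC. Rad KO sham did not overlap with WT sham, while sham and TAC overlapped in both labels.

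The IFIT proteins bind foreign RNA. Ifit1, which recognises RNA without cap methylation, was at 6.80, 7.87 and 7.93 CPM in WT sham, 6.84, 11.1, 6.86 and 7.33 in WT TAC, 5.96, 8.20 and 5.997 in Rad KO sham, and 15.6, 8.22, 5.16 and 7.77 in Rad KO TAC. Rad KO TAC 1 and WT TAC 2 each stood alone above the other libraries of their group. Ifit3, its partner, was at 10.5, 15.2 and 11.7 CPM in WT sham, 7.94, 14.99, 11.9 and 15.6 in WT TAC, 10.5, 12.8 and 8.90 in Rad KO sham, and 21.6, 16.8, 7.86 and 12.6 in Rad KO TAC. Of the 100-base windows of Ifit3 transcripts, 31.7% also occur in another gene, and 27.4% for Ifit3b, so reads of the pair may have been split or lost in counting.

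The OAS enzymes make the signal that activates RNase L. Oas2 had 5.79, 11.3 and 10.5 CPM in WT sham, 7.94, 10.6, 4.57 and 6.86 in WT TAC, 11.7, 12.3 and 7.29 in Rad KO sham, and 11.2, 7.58, 7.24 and 8.73 in Rad KO TAC. It peaked in Rad KO sham 2, and its groups overlapped. Oasl2, a related protein with ubiquitin-like domains, had 10.9, 15.3 and 11.5 CPM in WT sham, 9.90, 16.4, 10.3 and 12.1 in WT TAC, 10.1, 10.4 and 8.96 in Rad KO sham, and 27.8, 11.7, 13.8 and 10.9 in Rad KO TAC. No other library came above 16.4 CPM while Rad KO TAC 1 had 27.8, and the Rad KO sham libraries lay below all those of Rad KO TAC and of WT sham. Oas1a shares 40.9% of its windows with other genes, mostly its neighbour Oas1g, so its values are uncertain. Rtp4 and Gbp7 share less, 11.2% and 10.2%, chiefly with Gm45338 and the pseudogene Gm43802.

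Of the antiviral effectors, Mx1, a dynamin-like GTPase that blocks influenza virus and is defective in many laboratory strains, was barely detected at 0.132, 0.456 and 0.437 CPM in WT sham, 0.0651, 0.806, 0.446 and 0.660 in WT TAC, 0.957, 0.393 and 0.645 in Rad KO sham, and 1.06, 1.23, 0.307 and 0.344 in Rad KO TAC. Bst2 (tetherin) had 22.2, 31.6 and 25.6 CPM in WT sham, 16.5, 33.5, 24.1 and 21.7 in WT TAC, 14.6, 22.4 and 17.5 in Rad KO sham, and 33.5, 19.5, 24.6 and 24 in Rad KO TAC. WT TAC 2 and Rad KO TAC 1 shared the highest level to 3 digits, and WT sham 2 was next. The remaining effectors, Ifi44, Cmpk2, Rsad2 and Mx2, had 14-library means of 1.25 to 15.6 CPM.

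Gbp2 and Igtp (Irgm3) belong to the interferon-inducible GTPases, which attack vacuoles that hold pathogens. Gbp2 was measured at 22.6, 30.6 and 22.4 CPM in WT sham, 18.9, 23.5, 14.1 and 22.1 in WT TAC, 16.1, 17.8 and 21.6 in Rad KO sham, and 35.5, 19.4, 20.6 and 24.8 in Rad KO TAC. WT sham lay above Rad KO sham without overlap, and the other comparisons overlapped. Igtp was measured at 17.6, 33.9 and 19.99 CPM in WT sham, 9.90, 12.3, 8.53 and 12.7 in WT TAC, 14.2, 19.9 and 12.2 in Rad KO sham, and 26.1, 22.2, 12.6 and 15.3 in Rad KO TAC. Every WT TAC library lay below every WT sham library, while sham and TAC overlapped in Rad KO.

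The first comparison asks what pressure overload does in the WT ventricle. Igtp fell after TAC, from 23.8 ± 8.81 CPM in sham (SD, n = 3) to 10.9 ± 1.98 CPM (SD, n = 4), a log2 fold change of -1.13 (SE 0.23, adjusted p = 0.0290 in edgeR's quasi-likelihood test with Benjamini-Hochberg adjustment over 14323 genes). It was the 1 gene of the 36 tested that passed the threshold of 0.05. Over all genes tested, 3.09% passed in either direction and 1.08% passed as lower in TAC. At an unadjusted p under 0.05 there were 4 of 36 genes (11.1%), against 17.4% of all genes. Igtp lies at chr11:58199556-58207591 on the plus strand in the deposited tables, whose build is mm10. The authors' deposited table also gives 1 of the 37 genes an adjusted p under 0.05 in WT, namely Igtp with a log2 fold change of -1.12, and 0 in Rad KO.

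The call on Igtp depends on the libraries. It was made again in 3 of 7 fits that each left out a library, with log2 fold changes of -1.31 to -0.79 and adjusted p of 0.0225 to 0.0972. It was lost without WT sham 2 (-0.79, adjusted p = 0.0972), the library at 33.9 CPM, and also without WT sham 3 (-1.23, 0.0948), WT TAC 2 (-1.19, 0.0586) or WT TAC 3 (-1.03, 0.0587). The WT TAC libraries all had low Esr1, and so did WT sham 1, the lowest sham library for Igtp. Against that library alone, in a fit that left out WT sham 2 and 3 and Rad KO sham 2, the log2 fold change was -0.70. With Esr1 as a covariate and all 14 libraries it was -1.13 (adjusted p = 0.214 in edgeR), in a fit that called 4 of all genes. The part of whatever sets Esr1 apart was not tested. Igtp overlaps its neighbour Irgm2 on the same strand by 162 exon bases, 8.01% of its own, and 5.67% of its transcript windows occur in another gene. Irgm2, another GTPase of the family and not one of the 37, fell as well, by 0.79 on the log2 scale (adjusted p = 0.0328 in edgeR). How reads in the shared bases were counted is not known, and their part in these falls was not tested.

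No other gene of the list passed in WT. The 36 tested genes had 25 log2 fold changes below 0 and 11 above, with a median of -0.15 where the median of all genes was 0.00, written to 2 decimals. All 5 GTPases were below 0, with a median of -0.38, and so were all 4 sensors, with a median of -0.24. The IFIT genes had a median of 0.07 and the OAS genes of -0.04. Of 3 genes named after their values were seen, Dtx3l had a log2 fold change of 0.29 (SE 0.11, adjusted p = 0.212), Trim25 of -0.24 (SE 0.10, adjusted p = 0.229) and Gbp3 of -0.46 (SE 0.19, adjusted p = 0.251). Dtx3l and Parp9 overlap by 458 exon bases on opposite strands, and whether the libraries kept the strand is not stated. Without WT TAC 2, 30 of 35 tested genes were below 0, the median was -0.28 and 0 passed the threshold, against 1.66% of all genes, with 10 (28.6%) at an unadjusted p under 0.05, against 15.8% of all genes. Without WT sham 2 the median was -0.04, with 21 of 37 genes below 0. There 1 gene (2.7%) had an unadjusted p under 0.05, against 12.7% of all genes. Without WT TAC 3 the count was 1 of 35 (2.86%), against 14.1% of all genes. The median turned to 0.13, with 13 of 37 below 0, when the WT sham libraries with high Esr1 were left out. All 5 GTPases stayed below 0 there.

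**Figure D3:**
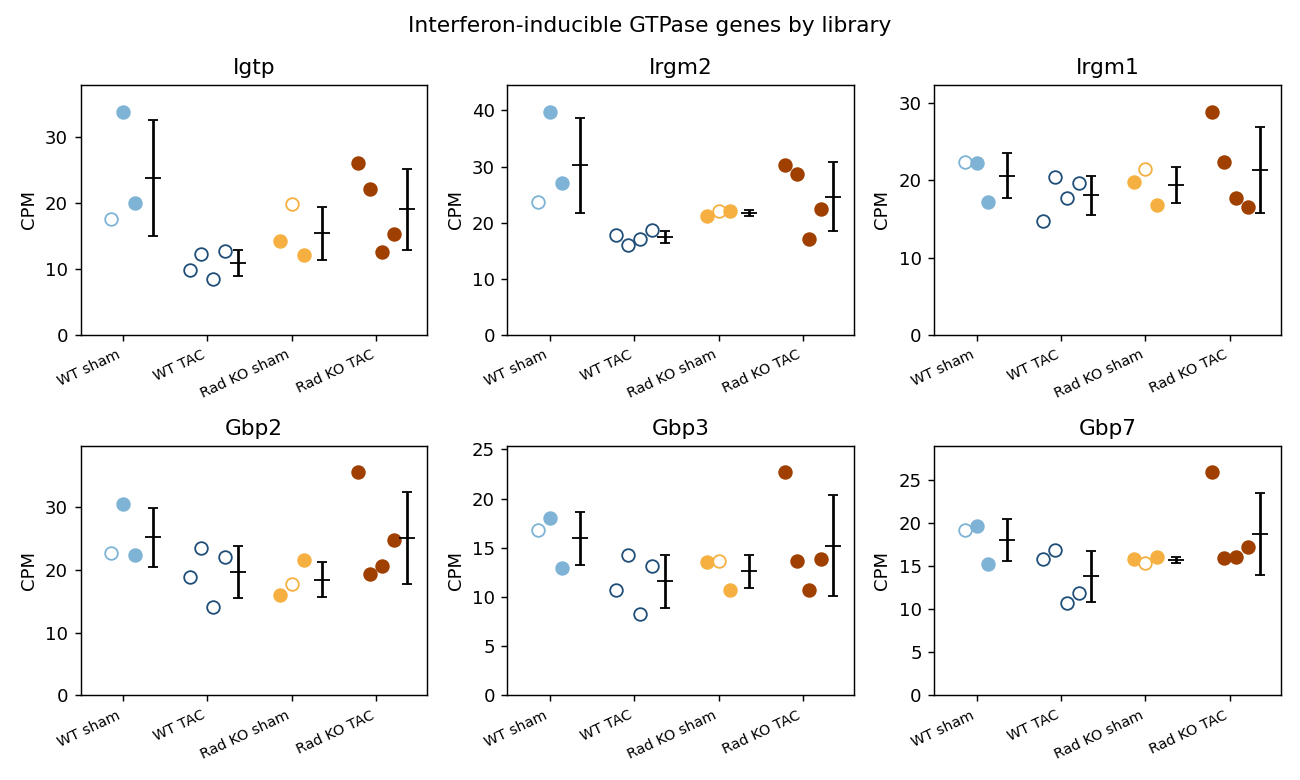
CPM of 6 interferon-inducible GTPase genes in each library by group, with black marks for the mean ± SD, filled points for libraries with over 100 CPM of Esr1 and open points for the rest. Igtp and Irgm2 are lower in all 4 WT TAC libraries than in the 3 WT sham libraries, and Rad KO TAC 1 is the highest library for Gbp2, Gbp3, Gbp7 and Irgm1.

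The same comparison in the libraries labelled Rad KO gave no call. Of the 36 genes tested, 0 passed the threshold in edgeR and 0 in DESeq2, against 1.69% of all 14122 genes tested in edgeR. At an unadjusted p under 0.05 there were 4 (11.1%), against 17.3% of all genes. These were Usp18, with a log2 fold change of 0.75 (SE 0.28, adjusted p = 0.205), Bst2 with 0.49 (SE 0.20, adjusted p = 0.241), Irf9 with 0.54 (SE 0.23, adjusted p = 0.261) and Oasl2 with 0.71 (SE 0.31, adjusted p = 0.265). Log2 fold changes were above 0 for 30 genes and below 0 for 6, and the median was 0.30 where that of all genes was 0.01. The medians by role ran from 0.03 for the factors to 0.54 for the OAS genes.

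This lean towards higher values rested on Rad KO TAC 1. Without it, 23 of 35 tested genes were above 0 and 12 below, the median was 0.06, and 0 genes had an unadjusted p under 0.05, against 14.6% of all genes. Usp18 then stood at 0.59 (adjusted p = 0.376), Bst2 at 0.31 (adjusted p = 0.435), Irf9 at 0.30 (adjusted p = 0.471) and Oasl2 at 0.30 (adjusted p = 0.408). By role, the OAS median went from 0.54 to 0.10 and that of the IFIT genes from 0.46 to 0.21. The median of the sensors went from 0.26 to -0.06.

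**Figure D4:**
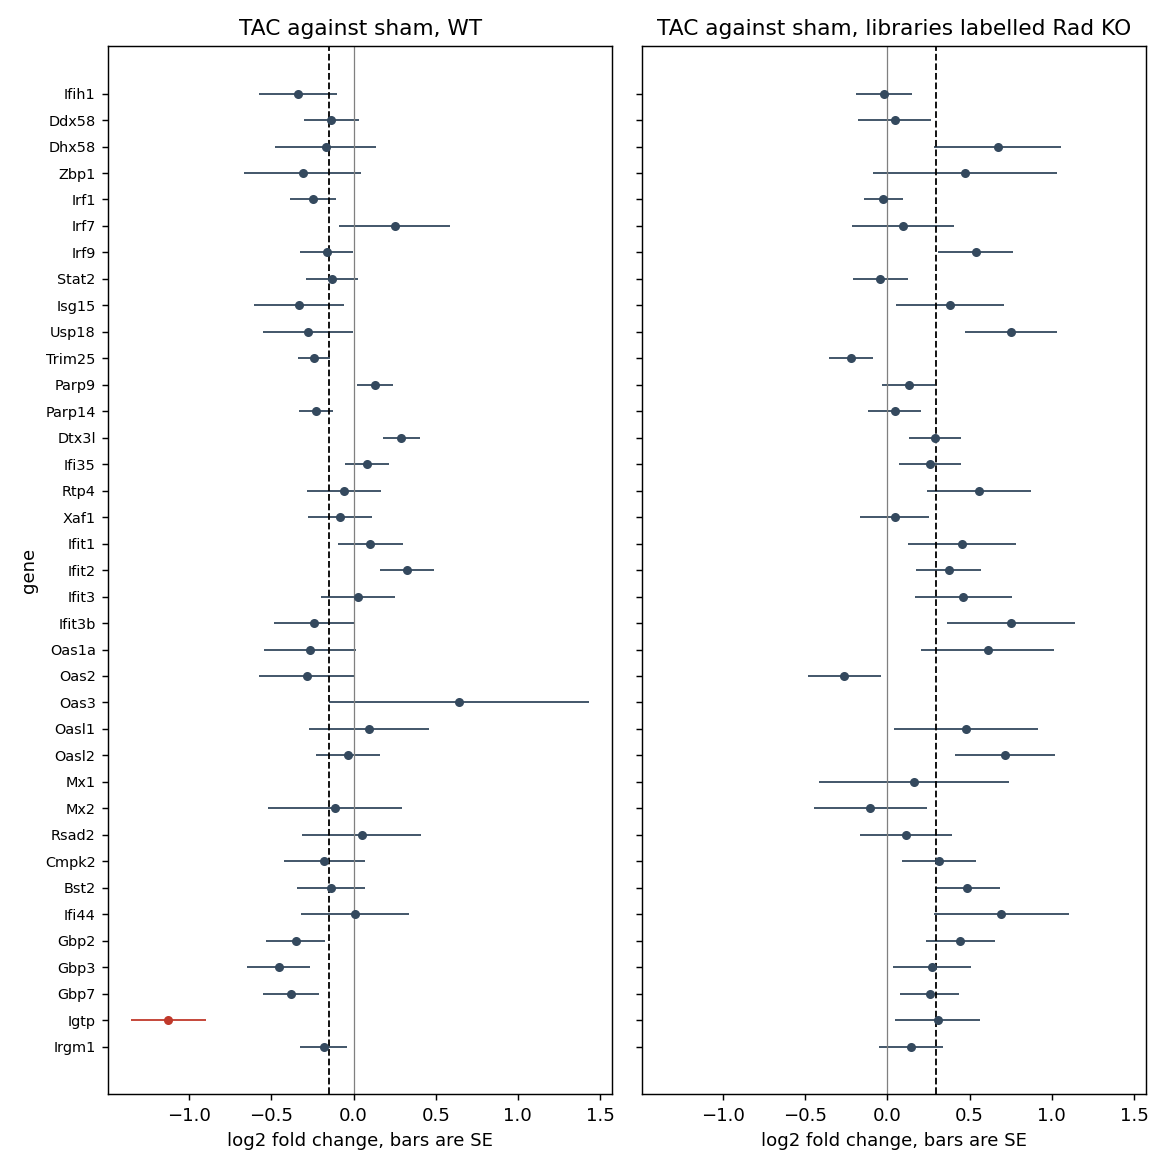
Log2 fold change of TAC against sham for each gene tested (rows) in the WT libraries (left) and in the libraries labelled Rad KO (right), with bars of 1 SE, a dashed line at the median and red for an adjusted p under 0.05. Igtp in WT is the only red point, and the medians are -0.15 and 0.30.

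**Figure D5:**
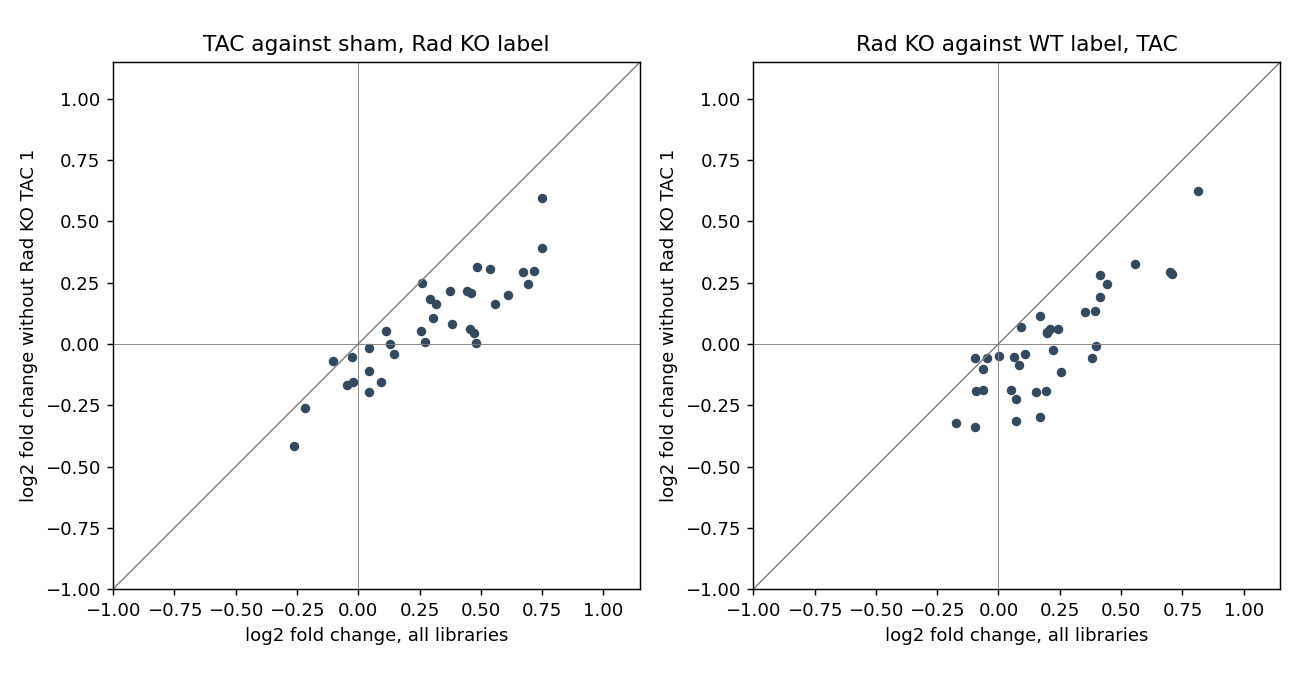
Log2 fold change of each gene with all libraries (horizontal axis) against the value without Rad KO TAC 1 (vertical axis), for TAC against sham in Rad KO (left) and Rad KO against WT in TAC (right), with the line of equal values. Most points lie under that line, and the medians go from 0.30 to 0.06 and from 0.17 to -0.05.

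The next comparisons set the knockout label against WT at the same operation. In sham, 0 of 37 genes passed the threshold in edgeR and 0 in DESeq2, and over all genes the share in edgeR was 0%. At an unadjusted p under 0.05 there were 4 of 37 (10.8%), against 5.75% of all genes. Usp18 had a log2 fold change of -0.83 (SE 0.30, adjusted p = 0.810), Ifit3b of -0.83 (SE 0.37, adjusted p = 0.831), Bst2 of -0.53 (SE 0.24, adjusted p = 0.831) and Igtp of -0.61 (SE 0.28, adjusted p = 0.831). Most values lay below 0, for 32 genes against 5 above, with a median of -0.19 where that of all genes was 0.00. That median was -0.09 without WT sham 2, -0.12 without Rad KO sham 3 and -0.32 without Rad KO sham 2. At an unadjusted p under 0.05 there was 1 of 37 genes (2.7%) without WT sham 2, against 3.09% of all genes. The count was also 1 without WT sham 3, against 4.93%, and without Rad KO sham 3, against 7.19%. It was 5 (13.5%) without WT sham 1, against 6.17%. Without Rad KO sham 1 it was 3 (8.11%), against 3.56%, and without Rad KO sham 2 it was 4 (10.8%), against 4.89%. These sham libraries are also the reference of the TAC comparisons, so the values of the comparisons are not independent.

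In TAC, 0 of 37 genes passed in edgeR and 0 in DESeq2, against 0.0136% of all genes in edgeR, and 3 had an unadjusted p under 0.05 (8.11%), against 7.76% of all genes. Igtp had a log2 fold change of 0.81 (SE 0.25, adjusted p = 0.357), Gbp7 of 0.44 (SE 0.17, adjusted p = 0.502), Irf9 of 0.41 (SE 0.19, adjusted p = 0.641) and Oas1a, the fourth by p, of 0.70 (SE 0.34, adjusted p = 0.653). Values were above 0 for 29 genes and below 0 for 8, with a median of 0.17 where that of all genes was 0.00. The direction turned without Rad KO TAC 1, when 15 of 36 genes were above 0 and the median was -0.05. There 1 gene (2.78%) had an unadjusted p under 0.05, against 8.09% of all genes. Without WT TAC 2 the lean above 0 widened, to 30 of 36, a median of 0.34 and 8 such genes (22.2%), against 7.47% of all genes. With both libraries left out, 23 of 36 were above 0 and the median was 0.12. There were then 3 such genes (8.33%), against 7.08% of all genes. Oasl2, for example, went from 0.40 to -0.01 without Rad KO TAC 1, while Igtp went from 0.81 to 0.62, Gbp7 from 0.44 to 0.24, Irf9 from 0.41 to 0.19 and Oas1a from 0.70 to 0.30. Every Rad KO TAC library had high Esr1 and every WT TAC library low Esr1, so label and Esr1 level cannot be told apart here. With Esr1 as a covariate, a term that rests on the sham libraries, 25 of 37 genes were above 0 and the median was 0.14. In that fit 0 genes had an unadjusted p under 0.05, against 2.69% of all genes.

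The last test asked whether the TAC effect differed between the labels, as the effect in Rad KO minus that in WT. It passed the threshold for 0 of 37 genes in edgeR and 0 in DESeq2, and for 0% of all 14731 in edgeR. At an unadjusted p under 0.05 there were 6 of 37 (16.2%), against 5.12% of all genes. The largest was Igtp, with a difference of 1.43 (SE 0.38, adjusted p = 0.672), so the fall in WT was not shown to differ from the change in Rad KO, where its log2 fold change was 0.30. Next by p were Gbp2 at 0.79 (SE 0.30, adjusted p = 0.904), Usp18 at 1.02 (SE 0.39, adjusted p = 0.911) and Gbp7 at 0.63 (SE 0.26, adjusted p = 0.931). Irf9 at 0.69 and Gbp3 at 0.72, both named after their values were seen, made up the 6. By role, 4 of the 5 GTPases were among them, and their median difference was 0.72. Over the 37 genes, 33 differences were above 0 and the median was 0.34, where that of all genes was 0.00. Without Rad KO TAC 1, 25 of 36 were above 0, the median was 0.18 and 3 genes had an unadjusted p under 0.05 (8.33%), against 5.17% of all genes. These were Igtp, Gbp2 and Usp18, so 2 GTPases were left, and the median of the 5 was 0.46. Without WT TAC 2 the values were 33 of 36, a median of 0.52 and 8 genes (22.2%), against 4.97% of all genes. With both libraries left out they were 31 of 36, 0.28 and 8 genes (22.2%), against 4.94% of all genes. Fewer genes had such a p in 2 other fits. Without WT sham 2, 30 of 37 were above 0, the median was 0.27 and the count was 2 (5.41%), against 3.26% of all genes. With Esr1 as a covariate the values were 30 of 37, 0.36 and 2 genes (5.41%), against 2.41%. In both fits all 5 GTPases were above 0, and 1 of them had an unadjusted p under 0.05.

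Other genes of the pathway were read from lists. Of 18 interferon genes, only Ifnb1, with 2 counts, and Ifnz, with 6, were read in the WT table, and none was among the genes in both tables, so no ligand was tested. Of 16 receptor and JAK-STAT genes, 0 passed in either label in the main fits. For TAC in WT, 1 passed in the model of all 14 libraries, against 3.8% of all genes. Likewise 1 passed without WT TAC 1, against 4.31%. Ifngr1, a chain of the interferon gamma receptor, had log2 fold changes with TAC of 0.38 (SE 0.10, adjusted p = 0.0617) in WT and 0.33 (SE 0.10, adjusted p = 0.140) in Rad KO. Ifnar1 had 0.10 and 0.03. Of 17 tested genes of nucleic acid sensing, 0 passed in either label, and Irf3, which starts interferon transcription, had -0.18 and -0.15.

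A list of 58 other interferon-induced genes was described in the same way. In WT, 1 of 55 fell (Irgm2, above) and 0 rose, against 3.09% of all genes called in either direction. There 46 log2 fold changes were below 0 and the median was -0.16. Without WT TAC 2 that median was -0.245, with 46 of 54 below 0. In Rad KO, 1 of 53 rose and 0 fell, against 1.69% of all genes, with 42 above 0 and a median of 0.24. Without Rad KO TAC 1 that median was 0.12, with 38 of 52 above 0. The gene that rose was Psmb10, an immunoproteasome subunit, at 32.8, 31.8 and 33.1 CPM in sham and 59.95, 68.3, 54.6 and 44.1 CPM in TAC. All its TAC libraries lay above its sham libraries, and its log2 fold change was 0.80 (SE 0.14, adjusted p = 0.0242), with 0.77 (adjusted p = 0.0484) without Rad KO TAC 1. In WT its log2 fold change was 0.59 (SE 0.18, adjusted p = 0.119 in edgeR), and the authors' deposited table gives 0.59 with an adjusted p of 0.0300 there. The difference between the labels was 0.21 (adjusted p = 0.979). The call held in 3 of 7 fits that each left out a library, and was lost without each of the Rad KO sham libraries and without Rad KO TAC 3, at adjusted p of up to 0.126. Psmb8, another subunit, had 0.67 in Rad KO (adjusted p = 0.187, and 0.50 without Rad KO TAC 1) and -0.22 in WT (adjusted p = 0.600). Ifitm3, which blocks viral entry, had 0.44 (adjusted p = 0.285, and 0.19 without Rad KO TAC 1) and 0.11 (adjusted p = 0.874). Rad KO TAC 1 was the highest library for 28 of the 55 tested genes of this list and for 8 of 17 of the sensing list. Over all genes the share was 7.82%. It ranked seventh for the summed receptor and JAK-STAT genes, at 1090 CPM within a range of 1019 to 1231.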

How the data were processed

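The members and gene lists were chosen with earlier results of these data known. For each genotype label 1 table was deposited, in which the authors give, per the file headers, the raw count and the FPKM (count over gene length and library depth) of every gene. Its log2 fold change between TAC and sham and the p-value, raw and adjusted, are the authors' own, as deposited. HISAT2, DESeq2, edgeR and mm10 appear in the submitters' processing notes; the counter and the strand setting are not stated.

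Tests used the counts, in edgeR 4.0.16 (R 4.3.3): TMM scaling, filterByExpr (minimum count 10, minimum total 15), quasi-likelihood F-test, Benjamini-Hochberg adjustment over all genes tested, threshold 0.05. TAC effects were fitted on the 7 libraries of a label, and Rad KO against WT and the difference of TAC effects in 1 model of 14 libraries. The SE is the log2 fold change over the square root of F. CPM used TMM scaling, and deviations a pseudocount of 1. The scripts were tested on simulated data. Groups and library numbers are from the labels. Totals of 14546176 to 23314792 counts set the precision.

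Text names 16 fixed members, those past the threshold (or the 4 with the smallest p) in each comparison, those with a library at 3 times the median or more and a mean of at least 1 CPM (none), and listed pathway genes past the threshold or fixed, of which 1 is not reported here. Alternatives were DESeq2 1.42.0, its size factors, no filter, the library number as a block, Esr1 as a covariate, sham libraries with unlike Esr1 left out, 1 model for all libraries, and each library left out. The count of genes highest in Rad KO TAC 1 under other scalings, and the fit without both that library and WT TAC 2, were added after seeing the data. Shared 100-base transcript windows and exon overlaps came from GENCODE M21.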

Additional observations from a re-analysis of the deposited data

Results flagged for a closer look

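Of 76 sets of 4 TAC libraries, 74 for the genes in each label and 2 for the median deviation of all 37, 10 held a library set far apart from the other 3, each for a gene, as Dixon's test at 95% defines it. For independent sets of normally spread values, chance gives about 1 in 20. The sets here share the same libraries, and the share over all genes was not counted, so no excess is claimed. WT TAC 2 was the library set apart for 5 genes. There Irf7 had 28.7 CPM against 12.4 CPM in the next library, Stat2 had 21.1 against 14.8, Ifit1 had 11.1 against 7.33, Oasl1 had 2.74 against 1.56 and Ifi44 had 8.49 against 4.04. Rad KO TAC 1 was set apart for 3 genes, with 27.7 CPM of Irf9 against 17.7 in the next library, 27.8 of Oasl2 against 13.8 and 25.9 of Gbp7 against 17.3. Of the transcript windows of Gbp7, 10.2% occur in another gene. A low library was found for the other two. Trim25, a ubiquitin ligase that activates RIG-I, had 24.4 CPM in Rad KO TAC 2 where the next lowest had 32, and Xaf1, which promotes apoptosis, had 13.3 CPM in Rad KO TAC 4 where the next lowest had 23.8. The fibroblast and macrophage marker sums were highest in Rad KO TAC 1 and WT TAC 2 as well, and their part in these values was not tested.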

How the results depend on the processing

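With Esr1 as a covariate the number of the 37 genes called for TAC in WT was 0, and without the sham libraries of unlike Esr1 it was 0 with a median log2 fold change of 0.13 in place of -0.15. Calls over all genes went from 560 in the same model to 4 and 0, so the member counts tell nothing apart from that. Leaving out each library in turn gave 0 to 1 calls for TAC in WT, and a median for TAC in Rad KO of 0.06 to 0.42. The median for Rad KO against WT in TAC ran from -0.05 to 0.34. No other count of calls among the 37 changed, and no call reversed. Over all genes, edgeR and DESeq2 called 442 and 910 for TAC in WT, 239 and 732 for TAC in Rad KO, and, between the labels, 0 and 15 in sham, 2 and 93 in TAC and 0 and 6 for the difference. Over all alternatives, 347 values for single genes kept their direction and side of the threshold and 19 lost a call, all of them for Igtp or Irgm2 in WT or Psmb10 in Rad KO. Library numbers did not pair the samples: 13 same-numbered pairs had correlations of -0.18 to 0.17, with 2 over 0.1. With the number as a replicate block the calls were 1 for TAC in WT (median -0.14), 0 for TAC in Rad KO (0.34, with 431 over all genes), 0 for Rad KO against WT in sham (-0.17), 0 in TAC (0.16) and 0 for the difference (0.34), and Irgm2 in WT lost its call (-0.80, adjusted p = 0.0542 in edgeR). The number of genes highest in Rad KO TAC 1 was 23 with DESeq2 size factors and 22 with no scaling, an alternative chosen after seeing the data. Depth limits Mx1 and Oas3, at no more than 20 counts in any library.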
